A study of Mus musculus with 3 samples.

Results

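Hedgehog signalling was examined through 8 genes on arrays of mouse otic placodal ectoderm: the ligand Shh, the receptors and surface proteins Ptch1, Hhip and Smo, the inhibitor Sufu, and the transcription factors Gli1, Gli2 and Gli3. Every probe whose gene name in the scanner files is one of these was taken, which gave 8 of the 27670 gene names and 16 of the 41174 probes on the array. No probe of the 8 genes passed the test between genotypes. The otic placode is the patch of head ectoderm that forms the inner ear. Pools of 10 microdissected placodes from embryos of 4 to 8 somites were compared between double null embryos (Fgf3-/-;Fgf10-/-, with no working copy of either fibroblast growth factor gene) and double heterozygous embryos (Fgf3+/-;Fgf10+/-). No wild type pool was part of the comparison, so each ratio is relative to tissue that already lacks 1 copy of each factor. Each of 3 two-colour Agilent arrays carried 1 amplified double null pool in Cy5 and 1 amplified double heterozygote pool in Cy3. The dyes were not swapped, so a probe's dye effect and the genotype cannot be told apart.

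Hedgehog ligands bind Ptch1, a membrane protein that otherwise holds Smo inactive. Free Smo acts at the primary cilium and releases the Gli factors from Sufu. Gli2 is the main activator, Gli3 is largely processed into a repressor, and Gli1 is an activator whose gene is itself induced. Ptch1 and Hhip are induced as well and limit the signal in return. In the embryo Shh is made by the notochord, the floor plate and the gut endoderm, and Shh from the midline patterns the ventral part of the otic vesicle that the placode later forms.

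A log2 ratio here is double null over double heterozygote, and a level is the log2 intensity of a probe in one genotype on one array. Of the 16 probes, 14 were tested, because they were well above background on all 3 arrays in at least one genotype. One Hhip probe (above background on 1 array in double nulls and 1 in double heterozygotes) and one Smo probe (on 2 arrays in double nulls and 2 in double heterozygotes) were not. All 8 genes kept at least 1 tested probe.

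The probes are short DNA strands, and a gene's reading depends on where its probe lies, so 5 of the probes compared below are shown. Each reads through without a stop codon in at least 1 of its 3 frames, as 10 of the 16 probes do. Positions are on the mouse build mm7. The Ptch1 probe lies at chr13:61333864-61333923 on the minus strand, the Gli1 probe at chr10:126832331-126832390 on the minus strand, and the Smo probe at chr6:29687728-29688961 on the plus strand, where its 60 bases are split over a longer genomic stretch. The Sufu probes lie on the plus strand at chr19:46380235-46380294 and chr19:46351403-46351462. The files name the same transcript, NM_015752, for both of them.
Ptch1 A_51_P127435: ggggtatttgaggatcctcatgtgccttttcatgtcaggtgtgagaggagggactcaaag
Gli1 A_51_P518548: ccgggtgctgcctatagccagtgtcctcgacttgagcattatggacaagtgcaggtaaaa
Smo A_52_P444864: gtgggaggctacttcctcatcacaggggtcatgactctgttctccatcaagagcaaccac
Sufu A_51_P396550: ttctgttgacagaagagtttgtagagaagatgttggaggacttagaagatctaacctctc
Sufu A_52_P603184: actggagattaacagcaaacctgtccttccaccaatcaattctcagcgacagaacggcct

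Across the 8 genes, limma called 0 of 14 tested probes at an adjusted p under 0.05, where 1.51% of the 25506 tested probes of the array were called. At an unadjusted p under 0.05, 3 of the 14 differed, all of them higher in double nulls (a Ptch1, an Hhip and a Sufu probe), against 20.2% of all tested probes (11.9% higher and 8.37% lower). The Hhip probe was admitted through the double null, where it is higher, and a Gli3 probe through the double heterozygote. With both genotypes required above background on all 3 arrays, 12 probes remained and 2 had an unadjusted p under 0.05. With the scanner's processed signals 5 of the 14 had an unadjusted p under 0.05, against 17.3% of all tested probes, and no probe of the array was called. A ratio of one sign on all 3 arrays was seen for 7 of the 14, against 43.8% of all tested probes. Their ratios lay 7 above 0 and 7 below, where those of all tested probes lay 13763 above and 11743 below. The median was -0.0043 for the 14 against 0.010 for all tested probes. The median size of the ratio, without its sign, was 0.099 for the 14 and 0.072 for all. The 95% intervals of the single probes, unadjusted, spanned at most a fold of 0.764 (Shh, lower bound) to 1.37 (Ptch1, upper bound), and with processed signals a fold of 0.531 (Shh) to 2.17 (Hhip). Support for a difference is not drawn from these counts.

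**Figure D1:**
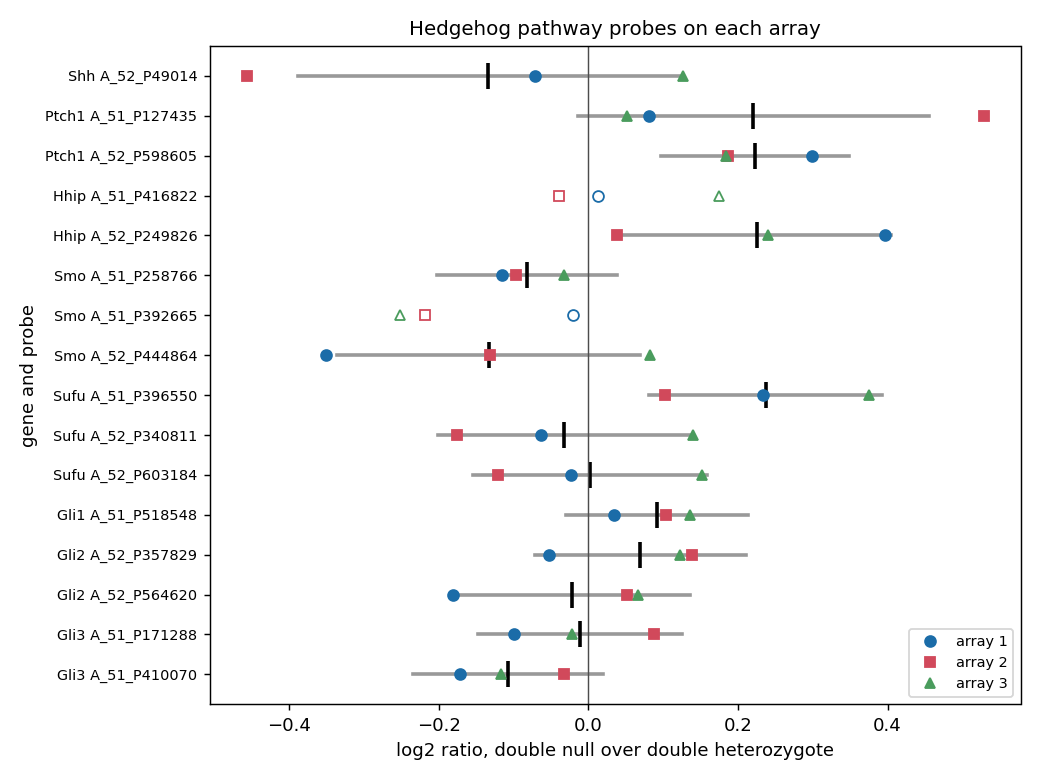
Log2 ratio of double null over double heterozygote (horizontal axis) for the 16 probes of the 8 Hedgehog genes (vertical axis), with 1 symbol per array, a black tick at the mean and a grey bar for the 95% interval of the limma fit. Open symbols are the 2 probes that were not tested. Shh and one Ptch1 probe are pulled apart by array 2, at -0.46 and 0.53.

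The ligand Shh is read by a single probe, printed 10 times per array, at chr5:27489898-27489957 on the minus strand. Its levels were 7.04, 7.00 and 8.13 in the double null pools, against 7.11, 7.46 and 8.00 in the double heterozygote pools. The genotypes overlapped, and both pools of array 3 stood above all others. The mean log2 ratio was -0.13 ± 0.11 (SE, n = 3; 95% interval -0.39 to 0.12; limma adjusted p = 0.519). The arrays did not share a sign, at -0.07, -0.46 and 0.13. Without array 2 the mean ratio was 0.03. The probe is dim. With the scanner's processed signals the ratio was -0.36 ± 0.21 (limma adjusted p = 0.425). The arrays then gave -0.31, -0.90 and 0.14.

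The repeated spots show that array 2 differed from arrays 1 and 3 by more than the spread within an array. The spots of arrays 1 and 3 overlapped. On array 2 all 8 Shh spots kept were below 0, between -0.59 and -0.34. On array 3 all 6 were above 0, between 0.04 and 0.25. On array 1 the 10 spots ran over both signs, with 3 above 0 and an SD of 0.18 between spots. Spots of 1 array share the same 2 RNA pools, so they measure the printing and hybridisation and not the genotype.

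The level of Shh moved more between arrays than between genotypes. Averaged over both genotypes it was 1.88 times as high on array 3 as on the other arrays. The range over the 3 arrays, 0.99 on the log2 scale, was larger than that of 99.6% of 25497 probes, whose median range was 0.15. Among probes with a level below 8, it was larger than that of 99.4%. Each of the other 7 genes ranged over at most 0.38. In pooled tissue, fewer cells of a type and less RNA per cell cannot be told apart.

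Some genes of tissues that make Shh were also highest on array 3 in both genotypes. T (Brachyury), the defining transcription factor of the notochord, had levels of 6.96, 7.05 and 8.27 in double nulls, against 7.09, 7.63 and 8.13 in double heterozygotes. Its log2 ratios of -0.13, -0.59 and 0.15 ran alongside those of Shh on each array. Pyy, a gut hormone gene expressed in early endoderm, had levels of 10.64, 10.40 and 12.03 in double nulls, against 10.46, 10.59 and 11.60 in double heterozygotes. Foxa1, a transcription factor of the endoderm, had 7.83, 7.72 and 8.53 in double nulls, against 8.01, 7.97 and 8.57 in double heterozygotes. T, Pyy and Foxa1, and Pax1 and Pax9 in the plot of levels, were chosen after their values were seen.

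Over the whole lists, 6 of 11 tested endoderm probes were highest on array 3 in both genotypes and ranged over more than 0.5 between arrays, against 0.584% of all tested probes. They belong to Pax9, Foxa1, Hhex, Trh and, with both its probes, Pyy. The summed endoderm level was 11060, 10700 and 14780 intensity units in double nulls, against 10850, 12220 and 14570 in double heterozygotes. The sum adds unlogged intensities, so bright probes, such as the Pyy probe with the levels above, weigh most in it. Of the 10 tested notochord and floor plate probes, only that of T had this pattern. The forkhead factor Foxa2, which marks both tissues, had levels of 11.81, 11.86 and 11.79 in double nulls, against 11.64, 12.11 and 11.99 in double heterozygotes. None of the 12 hindbrain, 13 head mesoderm, 12 neural crest or 21 otic and surface ectoderm probes had it, and 1 of the 7 blood and endothelial probes did. Without the limit on the range, 10 of the 21 otic and surface ectoderm probes (47.6%) were highest on array 3 in both genotypes. The same held for 7 of the 11 endoderm probes (63.6%) and 2 of the 10 notochord and floor plate probes (20%). Of all tested probes, 18.8% were. The part of these tissues in the Shh levels was not tested.

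**Figure D2:**
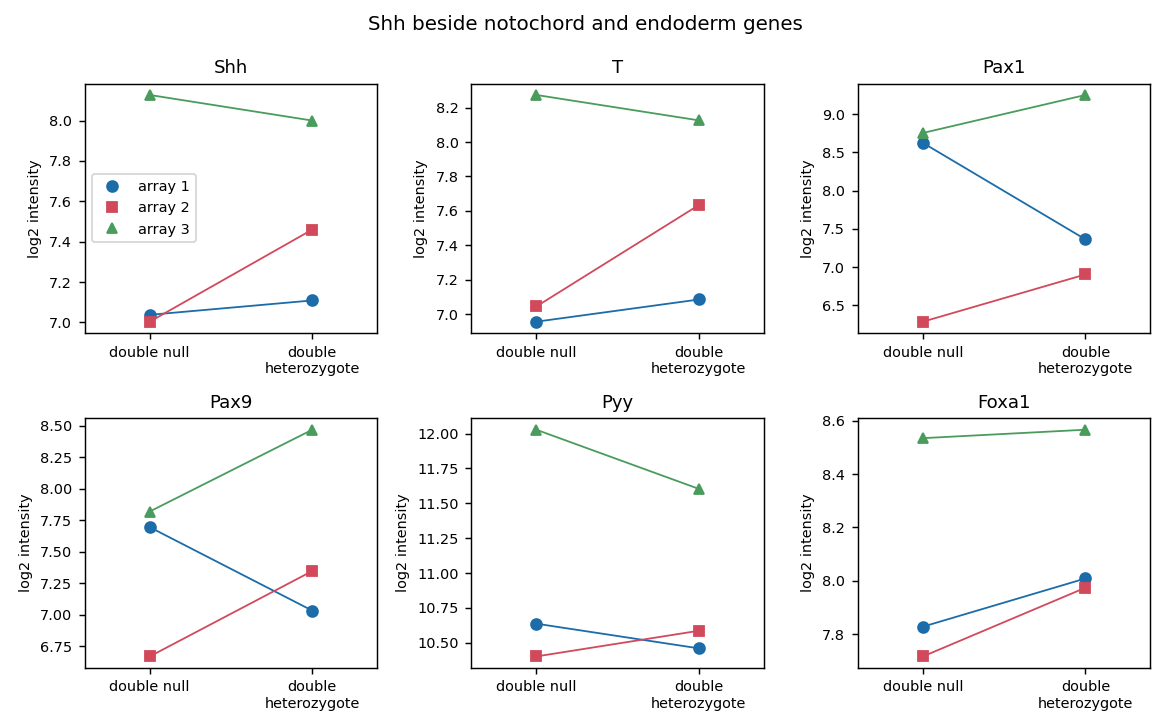
Log2 intensity (vertical axis, own scale in each panel) of Shh, the notochord gene T, the endoderm genes Pax9, Pyy and Foxa1, and Pax1, a gene of pharyngeal endoderm and sclerotome, in double null and double heterozygote pools, with a line joining the pools of 1 array. Both pools of array 3 are highest in every panel. In Pax1 and Pax9 the double null pool of array 1 stands nearly as high.

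The single-array values of Shh were most nearly matched by Tmem114, Dedd2 and Pla2g4b. They were the nearest of 21401 named probes by Euclidean distance over the 3 log2 ratios, at 0.064, 0.074 and 0.081. This likeness is over 3 arrays only.

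The receptor Ptch1 is read by 2 tested probes, both higher in the double null on every array. The probe shown above had levels of 7.80, 8.35 and 7.73 in double nulls, against 7.72, 7.82 and 7.68 in double heterozygotes. Its log2 ratio was 0.22 ± 0.10 (SE, n = 3; 95% interval -0.01 to 0.46; limma adjusted p = 0.270). Array 2 set this value: its 8 spots, between 0.40 and 0.60, did not overlap those of array 1 (0.00 to 0.22) or array 3 (-0.07 to 0.17). Without array 2 the ratio was 0.07.

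The other Ptch1 probe, at chr13:61331255-61331314, did not have this step. Its levels were 10.35, 10.54 and 10.59 in double nulls, against 10.05, 10.35 and 10.41 in double heterozygotes, so the groups overlapped while each array gave a higher double null value. The ratios of 0.30, 0.19 and 0.18 gave a mean of 0.22 ± 0.05 (95% interval 0.10 to 0.35), a fold of 1.17. This was the lowest adjusted p of the 8 genes, 0.101, which did not pass. Both probes gave a mean of 0.22, although on single arrays they differed by up to 0.34. The files assign this probe to the clone AK147626 and the other one to the RefSeq transcript NM_008957.

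**Figure D3:**
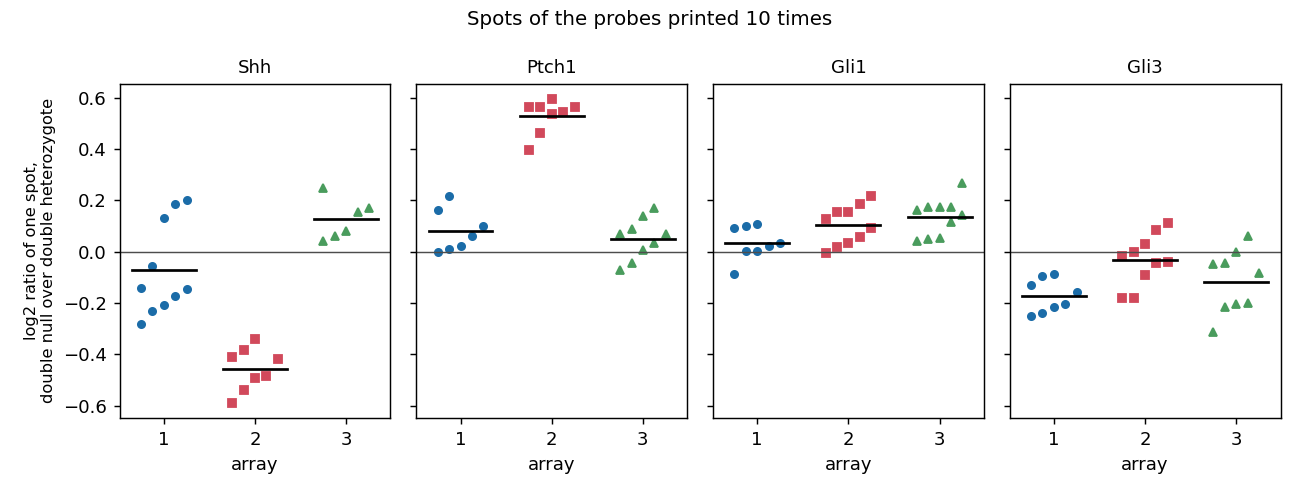
Log2 ratio of single spots (vertical axis, double null over double heterozygote) on each array (horizontal axis) for the 4 member probes printed 10 times, outlier spots left out, with the mean as a black line. The Shh and Ptch1 spots of array 2, at -0.46 and 0.53 on average, do not overlap those of the other arrays, while the Gli1 and Gli3 spots of the 3 arrays overlap.

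Genes near the values of the second Ptch1 probe were many. Phyh, Cavin1 and Copg1 were nearest, at distances of 0.018, 0.020 and 0.024, and 228 of 21400 named probes lay within 0.1. For Shh the number within that distance was 6.

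Hhip, a surface protein that binds and holds Hedgehog ligands, was dim. Its tested probe had levels of 7.26, 6.98 and 7.21 in double nulls, against 6.86, 6.94 and 6.97 in double heterozygotes, where it was above background on 2 arrays. The probe was admitted through the double null, where it is higher. The double null level of array 2 (6.98) and the double heterozygote level of array 3 (6.97) were nearly equal. The ratio was 0.22 ± 0.07 (n = 3; 95% interval 0.05 to 0.40; limma adjusted p = 0.179), with 0.40, 0.04 and 0.24 on the arrays. With a background offset of 16 in place of 50 the ratio was 0.31. With the scanner's processed signals, which differ in background treatment and normalization, it was 0.57 (adjusted p = 0.277, with 0.150 to 0.450 over all alternatives), and array 2 gave -0.01. The untested Hhip probe had ratios of 0.01, -0.04 and 0.17, which did not share a sign.

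Gli1, the activator whose gene reports on the pathway, had levels of 8.02, 7.92 and 7.92 in double nulls, against 7.99, 7.82 and 7.79 in double heterozygotes. The groups overlapped and all 3 arrays gave a small positive ratio, at 0.03, 0.10 and 0.14. The mean was 0.09 ± 0.05 (95% interval -0.03 to 0.21; limma adjusted p = 0.358), a fold of 1.07. The interval holds no change and, at its upper end, a fold of 1.16. With processed signals array 1 gave -0.02.

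Smo, the transducer that Ptch1 restrains, had ratios mostly below 0. Its probe at chr6:29693371-29693430, had levels of 15.50, 15.57 and 15.51 in double nulls, against 15.61, 15.66 and 15.54 in double heterozygotes. The ratio was -0.08 ± 0.05 (n = 3; 95% interval -0.20 to 0.04; limma adjusted p = 0.399), negative on all 3 arrays. The probe shown above had ratios of -0.35, -0.13 and 0.08, a mean of -0.13 (adjusted p = 0.414). Its sign differed between arrays. The untested Smo probe had ratios of -0.02, -0.22 and -0.25. With the scanner's processed signals the first probe gave -0.26 ± 0.05, with an adjusted p of 0.218. Loess on probes above background gave that probe -0.17 at a span of 0.3 and -0.25 at a span of 0.1. The limma adjusted p was 0.159 and 0.118. With median centring alone the first probe turned to 0.75 (adjusted p = 0.0001), which is 0.42 above the median of all tested probes.

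Sufu, which holds the Gli factors inactive, differed between its probes. The probe at chr19:46380235-46380294 had levels of 7.95, 8.06 and 8.12 in double nulls, against 7.72, 7.95 and 7.75 in double heterozygotes. The ratio was 0.24 ± 0.06 (95% interval 0.08 to 0.39; limma adjusted p = 0.131), a fold of 1.18. The probe at chr19:46351403-46351462, of the same transcript, had a ratio of 0.00 ± 0.07 (adjusted p = 0.987). The remaining one, at chr19:46385251-46385310, had -0.03 ± 0.07 (adjusted p = 0.822).

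These Sufu probes shared their order of arrays. The first was above the second by 0.26, 0.22 and 0.22 on the log2 scale, a difference of 0.23 ± 0.02 (SD, n = 3 arrays). It was above the remaining one by 0.30, 0.28 and 0.24. These other probes differed from each other by at most 0.05. With 3 arrays an exact sign-flip test cannot give a two-sided p below 0.25. All 3 probes had their lowest ratio on array 2 and their highest on array 3. The offset between probes of 1 gene is thus as large as the first probe's own ratio, 0.24, and its cause was not tested.

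For Gli2, the activator, no difference was detected. Its brightest probe had levels of 11.74, 11.69 and 11.87 in double nulls, against 11.79, 11.55 and 11.75 in double heterozygotes. The ratio was 0.07 ± 0.06 (limma adjusted p = 0.544), and the second probe gave -0.02 ± 0.07 (adjusted p = 0.884). The 95% intervals reached from -0.07 to 0.21 for the first and from -0.18 to 0.14 for the second.

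Gli3, the source of the repressor form, had levels of 13.66, 13.70 and 13.77 in double nulls, against 13.76, 13.61 and 13.79 in double heterozygotes on one probe. The ratio of that probe was -0.01 ± 0.06 (limma adjusted p = 0.934), and its 95% interval was -0.15 to 0.12. The second probe, printed 10 times and above background on 2 arrays in double nulls, gave -0.17, -0.03 and -0.12. Its mean was -0.11 ± 0.05 (adjusted p = 0.311), and with the scanner's processed signals it was -0.42, with an adjusted p of 0.217 (0.00095 to 0.642 over all alternatives, the lowest with median centring). The first probe exceeded the second on every array, by 0.07, 0.12 and 0.09 in ratio. Arrays of RNA do not show how much Gli3 protein is processed.

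The targeted genes were read the same way. Fgf3 had a ratio of -0.48 ± 0.12 (limma adjusted p = 0.121), with -0.69, -0.06 and -0.69 on the arrays, and Fgf10 had 0.14 ± 0.09 (adjusted p = 0.386). The position of these probes within or outside the deleted sequence was not analysed here, so they do not check the labels. Array 2, where Shh and the first Ptch1 probe departed most, was also where Fgf3 hardly differed. The globin gene Hbb-bh1 of primitive red cells had ratios of 1.43, -0.42 and 2.82 on one probe, lowest on that array. Whether these values of array 2 are related was not tested. Ptch1 and Gli3 share chromosome 13 with Fgf10, at 54.7 and 100.9 Mb from its probe. Ccnd1, described below, is a neighbour of Fgf3 on chromosome 7, with 3 protein-coding genes between them in the RefSeq table, and the files place its probe on unplaced sequence of that chromosome. How far sequence linked to either null allele extends was not analysed here.

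The wider pathway was taken as 5 lists of 71 genes, of which 63 were tested on 112 probes. Limma called 1 of these probes higher and 1 lower, and their median ratio was -0.01 against 0.010 for all tested probes. In the list between Smo and the Gli factors, 1 of 30 probes rose. It is the single probe of Efcab7, named BC020077 in the files, which encodes an EF-hand protein that ties the EVC complex to the base of the cilium. Its levels were 11.21, 11.16 and 11.02 in double nulls, against 10.69, 10.53 and 10.43 in double heterozygotes. Of all tested probes, 1.22% were called higher. The ratio was 0.58 ± 0.05 (n = 3; 95% interval 0.46 to 0.70; limma adjusted p = 0.00481), a fold of 1.49. With the scanner's processed signals the ratio was 0.60 with an adjusted p of 0.208, and without array 3 the adjusted p was 0.055. Over all its alternatives the adjusted p ran between 4.2e-05 and 0.208.

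Among genes that respond to Hedgehog signals in other embryonic tissues, 1 of 21 probes fell and none rose. Of the 21, 15 had a ratio below 0, with a median of -0.05. The same held for 11743 of all 25506 tested probes. The probe that fell is that of Ccnd1, the cyclin that drives entry into S phase. Its levels were 13.34, 13.47 and 13.55 in double nulls, against 13.73, 13.81 and 13.80 in double heterozygotes. Of all tested probes, 0.29% were called lower. The ratio was -0.33 ± 0.05 (limma adjusted p = 0.0428). Leaving out any 1 array gave an adjusted p between 0.114 and 0.139, and all alternatives between 0.0024 and 0.213. With median centring the ratio turned to 0.28, which is -0.05 relative to the median of all tested probes.

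Ligands and release factors had 0 of 9 probes called. Ihh and Dhh, the other ligands, were above background on no array in either genotype. Disp1, which releases the lipid-bearing ligand, had a ratio of 0.13 ± 0.06 on its brightest probe, and the secreted carrier Scube1 had -0.16 ± 0.06. Co-receptors and surface modulators had 0 of 10 called. Gpc3, a glypican that competes for ligand, had -0.16 ± 0.05 with one sign on all 3 arrays, and the endocytic receptor Lrp2 had -0.02 ± 0.06.

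The primary cilium, where Smo acts, had 0 of 44 probes called and a median ratio of 0.03. The transition zone gene B9d1 had 0.10 ± 0.06 and the transport gene Ift172 had 0.03 ± 0.05 on its brightest probe. These are the most intense tested genes of lists in which none was called.

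**Figure D4:**
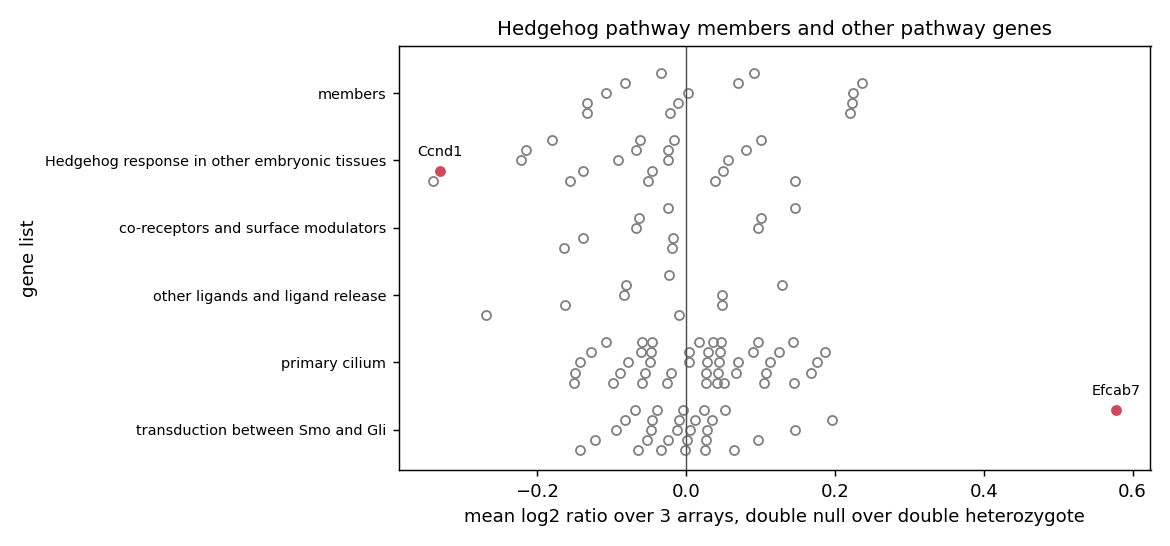
Mean log2 ratio over 3 arrays (horizontal axis, double null over double heterozygote) of every tested probe of the 8 member genes and of the 5 wider Hedgehog lists (vertical axis), with probes that passed the limma test filled in red. Efcab7 at 0.58 and Ccnd1 at -0.33 are the filled points.

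The dissected tissue was checked against markers. Of 15 otic and surface ectoderm genes on the array, 14 were tested, all but Pax2, whose only probe was not above background by the rule used. Of their 21 probes 3 were lower, an Hmx2 and a Sox9 probe among them, and none higher. Of all tested probes, 0.29% were called lower. Their ratios were below 0 for 20 of the 21, with a median of -0.22. Of all 25506 tested probes, 11743 had a ratio below 0 and 13763 above. Other tissues could be read as well: 10 hindbrain, 7 neural crest, 9 head mesoderm, 9 endoderm, 10 notochord and floor plate and 6 blood and endothelial genes were tested. Of those lists only the endoderm one had a called probe, a Sox17 probe at -0.54 (limma adjusted p = 0.0155). The other tested Sox17 probe, at -0.36, did not pass (adjusted p = 0.055). Mean ratios were below 0 for 11 of 12 hindbrain probes (median -0.13) and above 0 for all 7 blood and endothelial probes (median 0.67). The probe at that median of 0.67 was admitted through the double null, where it is higher. In double heterozygotes it was above background on 2 arrays. Both tested Hbb-bh1 probes are among the 7. On single arrays the medians were -0.12, -0.01 and -0.24 for hindbrain, and 1.21, -0.17 and 0.29 for blood and endothelium. One sign on all 3 arrays was seen for 7 of the 12 and 2 of the 7, against 43.8% of all tested probes. The part of these tissues in the member ratios was not tested. The most intense genes of the other lists, each with no call, are given next. Ratios were -0.31 for Egr2 and -0.20 for Hoxb2 (hindbrain), and -0.10 for Crabp1 and -0.22 for Erbb3 (neural crest). Head mesoderm had -0.02 for Prrx2 and -0.18 for Tbx1. Notochord and floor plate had -0.09 for Foxa2 and -0.14 for Nkx6-1. Blood and endothelium had 1.20 for Hbb-bh1 and 0.36 for Kdr. The Hbb-bh1 value is that of its brighter probe, not the one given above, with 1.43, -0.51 and 2.69 on the arrays. Kdr had 1.16, -0.26 and 0.18.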

How the data were processed

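Per the submitters' processing notes, spot extraction by the authors used Agilent Feature Extraction 9.5.1.1. Per the file headers, the deposited files hold mean and background intensity per channel, the scanner's processed intensity and a log10 ratio (Cy5 to Cy3). Log2 ratios in the series table, also deposited by the authors, equalled the scanner's log10 ratio, converted, within 2.01e-06. The arrays share a slide and a scan session.

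From the intensities, background was corrected with normexp (offset 50), ratios were normalized within arrays by loess (span 0.3, controls at weight 0), and levels were scaled between arrays with Aquantile, which leaves ratios as they are. Of 52 member spots per array, 4 to 7 carried an outlier mark and were left out; none was saturated. Repeated spots were averaged. A probe was tested if at least 0.5 of its spots were well above background on all 3 arrays in one channel. A limma fit (3.58.1, R 4.3.3, lmFit and eBayes) tested each mean ratio against 0, with Benjamini-Hochberg adjustment over all 25506 tested probes at 0.05. Errors are moderated SEs, and n is 3 arrays. The fit was tested on simulated data. For arrays, their number limits the precision.

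Genes were named through RefSeq records of GRCm38.p6, by accession (22951 probes), symbol (6659) or synonym (3109), and 8455 kept the file's name; positions are the files' own, on mm7. Named genes are every member probe, called genes of each list or its 2 most intense tested genes, Fgf3 and Fgf10, and the 3 genes nearest to Shh and Ptch1. A few genes of the lists are counted but not reported here by name. The members and lists were chosen with earlier results of these data known. Alternatives covered background, normalization, filter, probe rule, fit, threshold and each array left out.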

Additional observations from a re-analysis of the deposited data

How the results depend on the processing

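No member probe was called under any alternative except median centring, which called 9 of 14 and moved their median ratio to 0.24, where the median of all tested probes was itself 0.33. Against 384 calls over all probes (80.7% higher), the counts were 199 with an offset of 16, 210 with loess on probes above background at a span of 0.3 and 11 at a span of 0.1 (100% higher), 19476 with median centring (88.3% higher), 993 with an intensity trend in the prior (64.0% higher), 1082 at an adjusted p under 0.10 (65.2% higher), and 0 with the scanner's processed signals or the series table, with 4417 and 4469 probes at an unadjusted p under 0.05. Fitting the channels separately, without the array as a replicate block, gave 188 (93.6% higher). Leaving out 1 array gave 86 to 305 calls: 305 without array 1, 231 without array 2 and 86 without array 3 (95.3% higher).

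Signs turned mostly in probes near 0. With median centring the ratios were 0.61 for Gli3 A_51_P171288, 0.75 and 0.16 for Smo A_51_P258766 and A_52_P444864, 0.51 for Sufu A_52_P340811 and 0.28 for Ccnd1; relative to the median of all tested probes, Ccnd1 was at -0.05. With processed signals they were 0.0074 for Gli2 A_52_P564620, 0.015 for Gli3 A_51_P171288 and -0.025 for Sufu A_52_P603184, and the series table gave the same values (0.0074, 0.015 and -0.025). Sufu A_52_P603184 was also below 0 with an offset of 16 (-0.0046), no background correction (-0.0045), loess above background at spans of 0.3 (-0.010) and 0.1 (-0.022), and array weights (-0.013). Gli3 A_51_P171288 was above 0 with those loess settings (0.0020 and 0.029) and array weights (0.00078), Gli2 A_52_P564620 with no background correction (0.021), and Sufu A_52_P340811 with all probes of the gene averaged (0.069). Leaving out 1 array gave -0.26 to 0.028 for Shh, -0.065 to 0.059 for Gli2 A_52_P564620, -0.061 to 0.033 for Gli3 A_51_P171288, -0.12 to 0.038 for Sufu A_52_P340811 and -0.072 to 0.064 for Sufu A_52_P603184. Causes were not tested. The unswapped dye is part of every ratio. With processed signals the dim Shh, Hhip and Gli3 A_51_P410070 probes moved to -0.36, 0.57 and -0.42.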
